A study of Mus musculus with 6 samples.

Results

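The genes described are the replication-dependent histone genes of the mouse, chosen as the 67 gene symbols that begin with Hist1h, Hist2h, Hist3h or Hist4h among the 21878 symbols of the deposited table. Of these, 54 carry the prefix Hist1, 10 the prefix Hist2, 2 the prefix Hist3 and 1 the prefix Hist4, and by protein 6 encode H1, 18 H2A, 18 H2B, 12 H3 and 13 H4. RNA was sequenced from HT22 cells, an immortalized mouse hippocampal neuronal line, with 3 replicates of control cells and 3 of cells given 120 µM aluminum maltolate (the Al group). The labels mark the latter libraries only with the letter M and do not spell it out. That they are the Al group is inferred from the series text, which names just a control and an Al-treated group, and from the study's tables, which write Al in place of M. The study's treatment methods give 24 h and list both a DMEM control and a maltol control, and which of them was sequenced is not stated in the sources used here. No genetic change was made in either group, and all samples came from 1 cell line, so the replicates share 1 cell population. Of the defining neuronal genes, Tubb3 was at 2.44 to 5.54 FPKM, while Snap25 was listed at 0 in all 6 libraries and Map2 at 0 in 5 of them, so the labelled cell type rests on few of its usual markers.

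Histones H2A, H2B, H3 and H4 wrap DNA into nucleosomes, and H1 binds the linker between them. Most copies are made in S phase, from clustered genes without introns whose mRNA ends in a stem-loop in place of a poly(A) tail. The stem-loop binding protein Slbp holds this structure through processing, export and translation, and the mRNA is destroyed when DNA synthesis stops. A few genes of the clusters also make polyadenylated mRNA, which is used in cells that no longer divide. Replacement histones, encoded outside the clusters, have ordinary polyadenylated mRNA throughout the cell cycle. The libraries were made with the Illumina TruSeq Stranded mRNA kit, whose standard protocol selects RNA by its poly(A) tail, a step that mRNA ending in the stem-loop would largely escape. The methods do not say whether that step was run on the fragmented RNA used here. The FPKM of these genes is therefore the level of the histone mRNA that entered the libraries, and a change in its amount and a change in the share with a tail cannot be told apart.

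Stem-loops are shown because they are the element that sets this gene class apart, with at least 1 gene for each of the 6 forms found. The sequences come from GENCODE transcripts on GRCm38, with T for U, and the capitals mark the stem, the loop of 4 bases and the returning strand of the stem.
Hist1h2bh: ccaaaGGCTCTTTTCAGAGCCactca
Hist1h3e: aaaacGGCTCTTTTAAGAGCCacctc
Hist1h4d: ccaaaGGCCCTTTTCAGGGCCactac
Hist1h4j: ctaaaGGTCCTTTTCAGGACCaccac
Hist2h2ac: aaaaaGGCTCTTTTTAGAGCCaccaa
Hist2h4: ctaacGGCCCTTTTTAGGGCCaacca
Hist4h4: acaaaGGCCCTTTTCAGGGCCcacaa
A stem of 6 paired bases around such a loop was found after the stop codon in 44 of the 67 genes, 21 to 58 bases past the stop codon (median 31). The form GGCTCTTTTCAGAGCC was held by 26 genes of the H1, H2A, H2B and H3 types, and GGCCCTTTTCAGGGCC by 7 genes, all of them H4. In 16 of the 23 genes without a match, the annotated transcript ended under 40 bases after the stop codon, so the window did not reach the place of the element. The same search found the form in 0.11% of 21810 other protein-coding genes.

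Levels are given as FPKM (fragments counted per kilobase of transcript, relative to library size) divided by a size factor per library, here called the scaled FPKM. The size factors were 1.18, 1.21 and 1.17 for control, and 0.802, 0.815 and 0.932 for Al. The reads behind the FPKM were recovered as whole numbers, out of library totals of 38059492 to 44556768 for control and 21125631 to 26670978 for Al. The study's thresholds were used to call a gene lower or higher, namely a log2 fold change beyond 0.58 in either direction with an unadjusted P under 0.05. Adjusted P values (Benjamini-Hochberg) cover the 12889 tested genes, and all P values of single genes are from limma. Of the 67 histone genes, 66 passed the filter on low values. The remaining one, Hist3h2a, was listed at 0 in all 6 libraries, a count that leaves room for up to 3 reads in each.

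Most histone mRNAs were lower in the Al group, and none was called higher. Of the 66 tested genes, 53 were called lower, against 24.4% of all tested genes, and 0 were called higher, against 26.2% of all tested genes. The 0 stood beside 1 gene with an unadjusted P under 0.05 in the upward direction, Hist2h2ab, whose fold change was under the threshold, and limma voom on the recovered reads also called 0 higher. The median log2 fold change was -1.19, beside 0.03 over all tested genes, and the range ran from -2.94 to 0.52. With the adjusted P in place of the unadjusted one, 51 were called lower, against 23.7% of all tested genes. In 53 of the genes the 3 Al libraries lay below the 3 control libraries without overlap, which was the case for 33.1% of all tested genes.

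The scaling of the libraries moved the counts of all genes, but the histone median lay below that of all genes in each of them. On FPKM as deposited, 63 of the 66 were called lower against 42.0% of all tested genes, and the median was -1.68 where that of all tested genes was -0.43. On TPM the count was again 63, against 53.1% of all genes, with a median of -1.98 beside -0.72. After quantile normalization 60 were called lower against 24.2% of all tested genes, with a median of -1.71 beside -0.03. Relative to the median of all genes, the histone median was therefore -1.22 with the median-of-ratios scaling, -1.25 as deposited, -1.26 on TPM and -1.69 after quantile normalization. The share of higher genes among all calls was 51.8% with the median-of-ratios scaling, 25.0% as deposited and 14.9% on TPM.

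Summed over the 67 genes, the scaled FPKM came to 14314, 14413 and 14997 in control and to 10339, 8232 and 5206 in Al. All 3 Al libraries were below all control libraries, and Al replicate 3 held the smallest sum. The log2 ratio was -0.93 (P = 0.1, exact permutation test over libraries, two-sided, where 0.1 is the smallest P that 3 against 3 allows). As a share of all reads, the histone genes took 0.893% ± 0.0140 in control against 0.337% ± 0.0859 in Al (SD, 3 libraries each). Among the 100 genes with the highest mean FPKM, 11 were histone genes in control cells, and 0 in Al-treated cells. In bulk RNA, fewer cells in S phase and less histone mRNA per cell cannot be told apart.

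**Figure D1:**
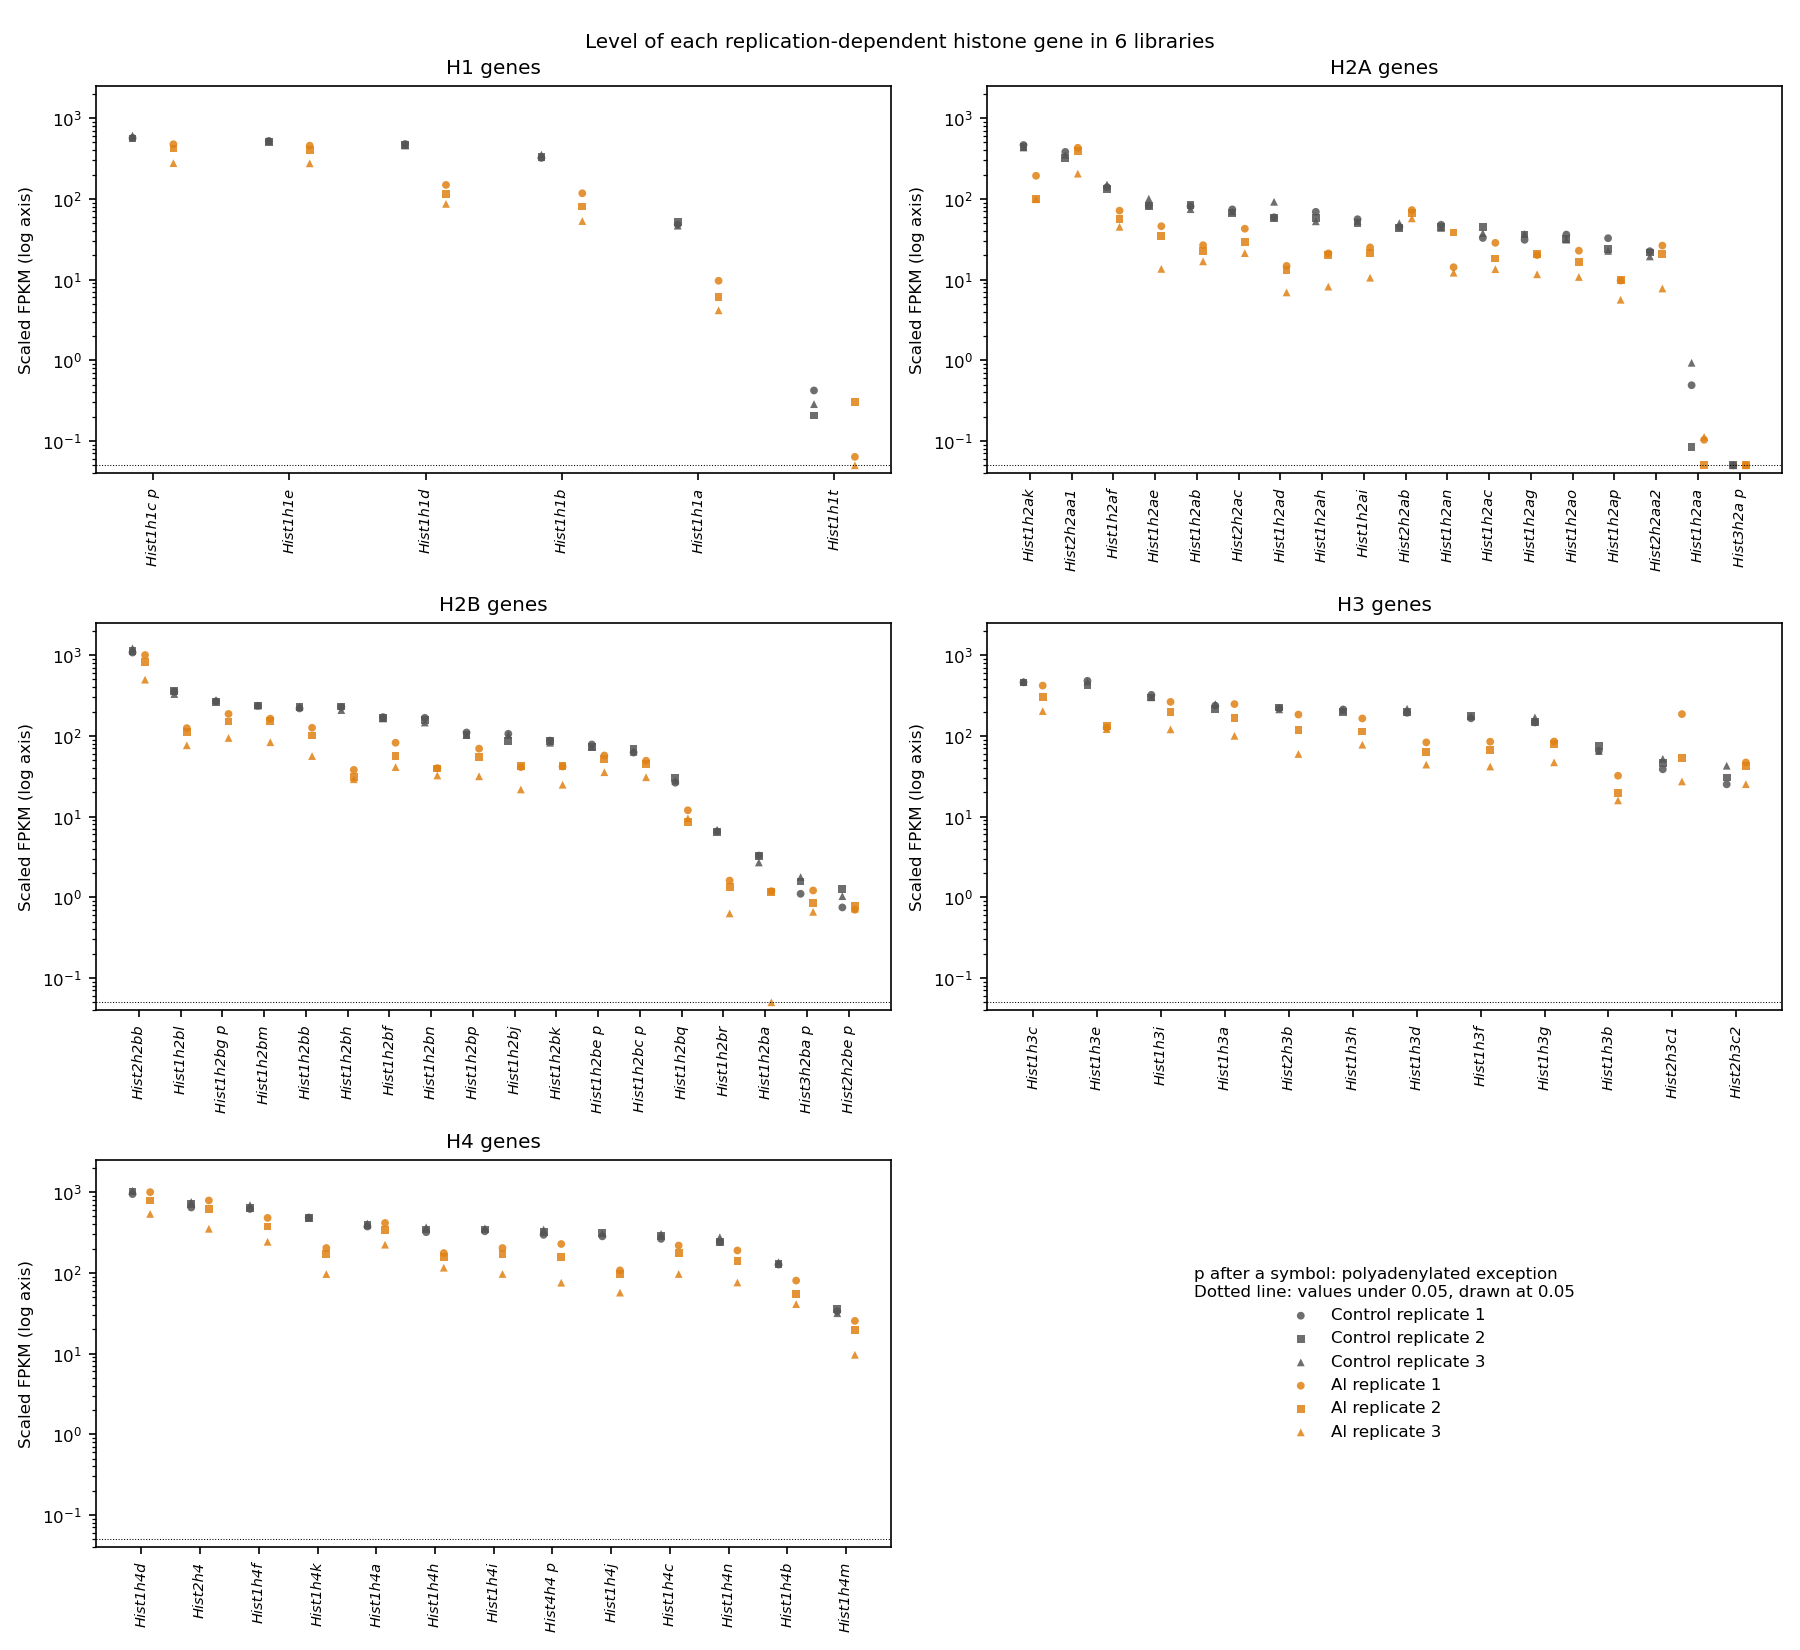
Scaled FPKM (log axis) of each histone gene in the 3 control libraries (grey) and the 3 Al libraries (orange), 1 panel per protein type, with a mark shape for each replicate and genes ordered by their control mean; values under 0.05 are drawn at 0.05. In 53 of the 66 tested genes the 3 Al marks lie below all 3 control marks, and in Hist2h2ab they lie above them; p after a symbol marks a gene of the polyadenylated list.

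The spread between libraries was uneven. Of the 66 genes, 62 had their lowest scaled Al value in Al replicate 3 and 57 their highest in Al replicate 1. Without Al replicate 3, 42 genes were called lower, 2 were called higher (Hist2h2ab and Hist2h3c1), and the median was -0.89. Without Al replicate 1, 56 were called lower and the median was -1.36.

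The linker histone genes ranged from strongly lowered to not called. Hist1h1a fell most of all 66 tested genes. Its scaled FPKM was 48.0, 52.2 and 46.5 in control and 9.66, 6.11 and 4.16 in Al, a log2 fold change of -2.94 ± 0.25 (SE, adjusted P = 3.11e-05). Hist1h1b was at 321, 326 and 353 in control and 117, 80.4 and 53.1 in Al (log2 fold change -2.07 ± 0.25, adjusted P = 0.000157). Hist1h1d was at 478, 464 and 458 in control and 149, 115 and 86.6 in Al (log2 fold change -2.03 ± 0.19, adjusted P = 4.77e-05). In these 3 genes the groups lay far apart, and Al replicate 3 was the lowest library of each.
Hist1h1c and Hist1h1e, the most abundant H1 genes, changed less. Hist1h1c, which also has a polyadenylated form, was at 568, 560 and 607 in control and 475, 420 and 277 in Al (log2 fold change -0.60 ± 0.22, adjusted P = 0.0395). That call was lost without Al replicate 3, where its log2 fold change was -0.36, and also without control replicate 2, without control replicate 3 and with the replicate block. Hist1h1e was at 521, 501 and 521 in control and 455, 401 and 275 in Al, with no overlap but a log2 fold change of -0.48 (adjusted P = 0.072), and it was not called. In all, 4 of the 6 H1 genes were called lower, with a median of -1.55.

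Among the H2A genes, 14 of the 17 tested were called lower and the median was -1.31. The most abundant, Hist1h2ak, was at 464, 440 and 433 in control and 193, 98.9 and 99.0 in Al (log2 fold change -1.85 ± 0.25, adjusted P = 0.000286). Hist1h2af was at 139, 133 and 150 in control and 71.4, 56.8 and 45 in Al (log2 fold change -1.31 ± 0.16, adjusted P = 0.000188). Both were lowered in every Al library. Hist1h2ad had the largest fall of the type, from 59.0, 57.5 and 91.9 to 14.8, 13 and 6.93 (log2 fold change -2.61 ± 0.28, adjusted P = 9.59e-05). Each of its coding stretches of 100 bases also occurs in another gene, and whether its reads of 150 bases could be placed was not tested. All 13 Hist1 genes of the H2A type were called lower (12 at the adjusted P, where Hist1h2aa was not), and the 3 that were not called all belong to the Hist2 cluster.

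The H2B genes gave the second most negative member of the set. Of 18 H2B genes, 16 were called lower, with a median of -1.30. Hist1h2bh was at 228, 232 and 209 in control and 37.9, 30.7 and 29.0 in Al (log2 fold change -2.78 ± 0.13, adjusted P = 4.03e-06). Hist1h2bn was at 167, 158 and 146 in control and 39.8, 39.4 and 32.3 in Al (log2 fold change -2.08 ± 0.12, adjusted P = 6.98e-06). In both genes the 3 Al libraries lay close together and far under the control libraries. Hist1h2bl was at 355, 358 and 329 in control and 124, 112 and 76.3 in Al (log2 fold change -1.76 ± 0.18, adjusted P = 7.67e-05). Hist1h2br, a weakly expressed gene with a coding sequence identical to that of Hist1h2bq, was at 6.54, 6.37 and 6.85 in control and 1.61, 1.34 and 0.630 in Al (log2 fold change -2.46 ± 0.29, adjusted P = 0.000142). All 15 Hist1 genes of the H2B type were called lower, and neither Hist2 gene of the type was.

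The H3 and H4 genes, which form the core tetramer, had the less negative medians, -0.93 for H3 and -0.99 for H4, and 9 of 12 and 10 of 13 genes were called lower. Hist1h3e stood out among the H3 genes, at 481, 420 and 471 in control and 126, 132 and 121 in Al (log2 fold change -1.85 ± 0.13, adjusted P = 1.37e-05). The equally abundant Hist1h3c was at 460, 458 and 466 in control and 419, 302 and 203 in Al (log2 fold change -0.64 ± 0.25, adjusted P = 0.0474), a call lost in 5 of the 6 fits without 1 library. Hist1h3i was at 322, 298 and 300 in control and 263, 196 and 120 in Al (log2 fold change -0.74 ± 0.25, adjusted P = 0.0317), with a log2 fold change of -0.42 and no call without Al replicate 3. The Al libraries of the latter pair were spread widely, whereas those of Hist1h3e were close together.
Hist1h4d, the most abundant H4 gene, was at 946, 1021 and 1039 in control and 999, 788 and 537 in Al (log2 fold change -0.42 ± 0.26, adjusted P = 0.194), and the groups overlapped. Hist1h4f was at 619, 630 and 690 in control and 479, 376 and 243 in Al (log2 fold change -0.87 ± 0.25, adjusted P = 0.0138). The largest fall of the type was that of Hist1h4j, with a log2 fold change of -1.85 ± 0.22 (adjusted P = 0.00015). Without Al replicate 3, 5 H3 and 8 H4 genes were called lower.

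The Hist1 cluster spans 2219 kb (chr13:21715763-23934851 on GRCm38), the Hist2 cluster 50.3 kb (chr3:96219865-96270132), the Hist3 pair 7.9 kb (chr11:58948920-58956830), and Hist4h4 stands alone at chr6:136801553-136804415. In the Hist1 cluster 49 of 54 genes were called lower, with a median of -1.29, and all 54 had a negative log2 fold change. In the Hist2 cluster 2 of 10 were called lower, with a median of -0.36, and 3 had a positive log2 fold change. Against the 24.4% of all tested genes called lower, the Hist1 count was far above this share and the Hist2 count was near it at this scaling. Without Al replicate 3 these counts were 40 and 1, and the Hist2 median was 0.08. On FPKM as deposited, 54 of the Hist1 genes and 7 of the Hist2 genes were called lower, with medians of -1.77 and -0.83, where 42.0% of all tested genes were called lower. After quantile normalization they were 54 and 5, beside 24.2% of all tested genes, so that the Hist2 count was then above this share.

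**Figure D2:**
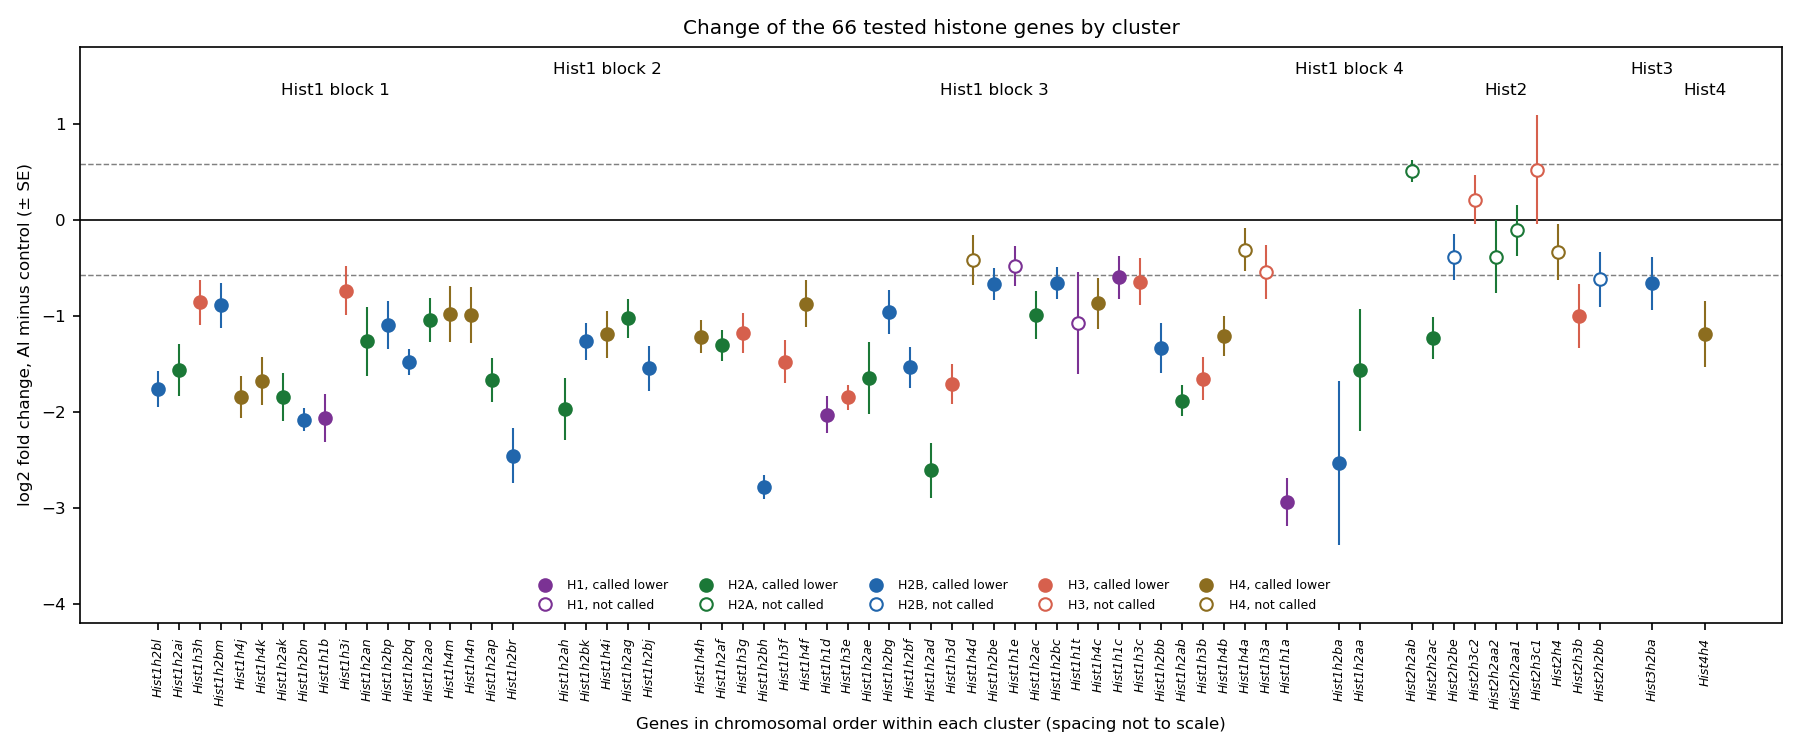
Log2 fold change (Al minus control, points with SE bars) of the 66 tested histone genes in chromosomal order within each cluster, coloured by protein type and filled where called lower; dashed lines mark 0.58 in either direction. Filled points make up 49 of the 54 Hist1 genes, and 8 of the 10 Hist2 genes have open points at or above -0.62.

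The composition of the histone mRNA pool moved with these differences. The Hist1 genes took 80.3%, 79.7% and 79.2% of the summed FPKM in control, and 70.9%, 71.8% and 74.5% in Al. The Hist2 genes took 17.7%, 18% and 18.5% in control and 26.9%, 26.2% and 24% in Al. Neither pair of groups overlapped, and the means differed by -7.33 and 7.67 percentage points (P = 0.1 for each, exact permutation test, two-sided, the smallest P the design allows; 0.18 after adjustment over 9 shares). These shares do not depend on the scaling between libraries. The share of H4 was 35.9% ± 1.10 in control and 39.4% ± 0.571 in Al, and that of H2B was 22.2% ± 0.319 and 20.3% ± 0.527 (SD, n = 3 each, no overlap for either, P = 0.1, exact permutation test, and 0.18 after adjustment). The share of H2A was 11% ± 0.473 and 10.5% ± 0.184, also without overlap and with the same P of 0.1 from the exact permutation test, but as shares of the recovered reads the H2A groups overlapped (P = 0.3, exact permutation test). The shares of H1, H3, Hist3 and Hist4 overlapped between the groups, with exact permutation P from 0.2 to 0.8.

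**Figure D3:**
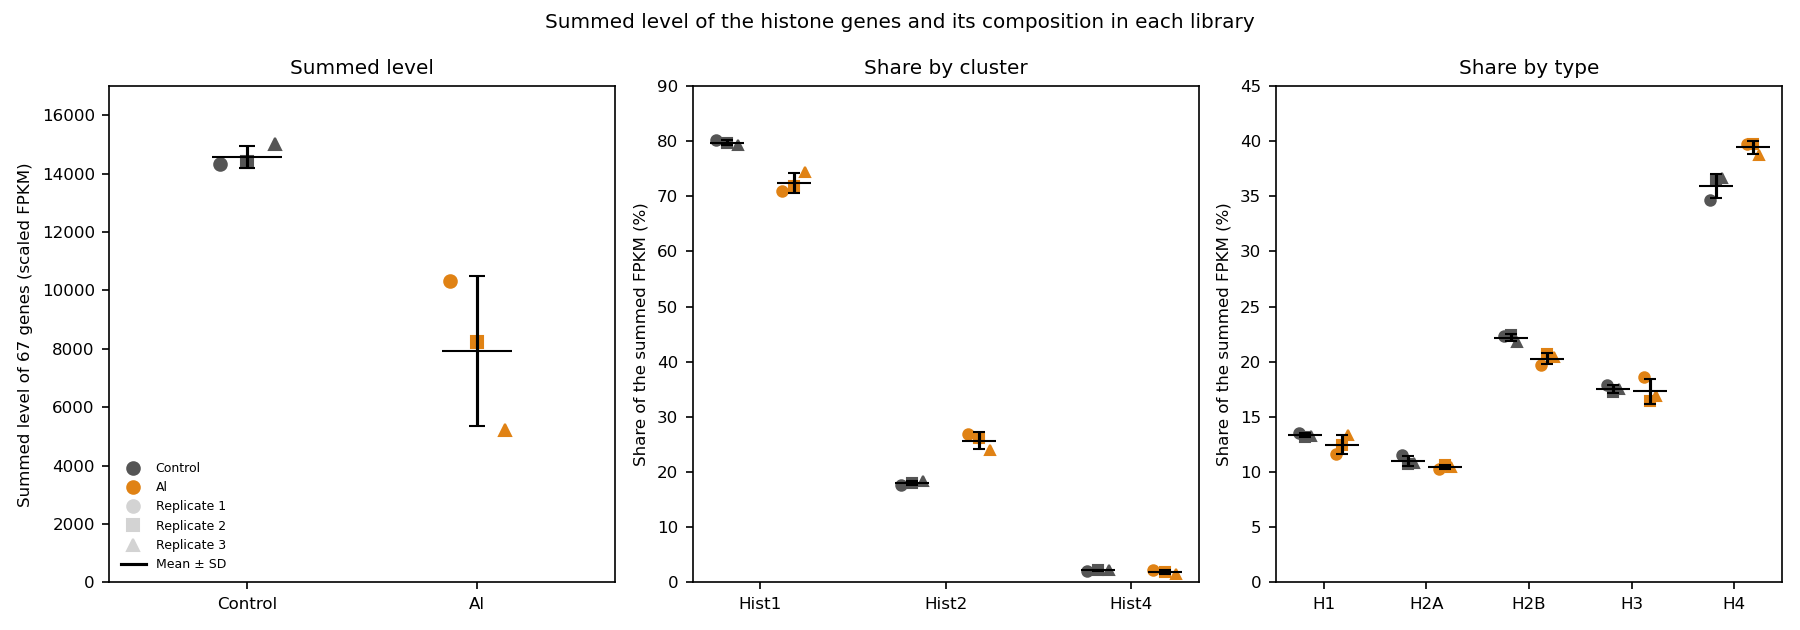
Left, the summed scaled FPKM of the 67 histone genes in each library; middle and right, the percent of the summed FPKM held by each cluster and each protein type, with a mark per library and black bars for the mean ± SD (n = 3). The Hist2 share lay between 17.7% and 18.5% in control and between 24% and 26.9% in Al; Hist3, at 0.01%, is not drawn.

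Within the Hist2 cluster the genes differed from each other. Hist2h2ac and Hist2h3b were called lower. Hist2h2ac was at 74.0, 66.5 and 69.8 in control and 42.6, 28.9 and 21.3 in Al (log2 fold change -1.23 ± 0.22, adjusted P = 0.0012). Hist2h3b was at 219, 225 and 213 in control and 183, 119 and 59.6 in Al (log2 fold change -1.0 ± 0.34, adjusted P = 0.0289). Both were under the control range in every Al library, although Hist2h3b lost its call without Al replicate 3.
Hist2h2bb, the most abundant of all histone genes in the control group, was at 1076, 1123 and 1216 in control and 1002, 814 and 496 in Al (log2 fold change -0.62 ± 0.28, adjusted P = 0.086). Its groups did not overlap, but its unadjusted P also missed the threshold. Hist2h4 was at 645, 719 and 756 in control and 788, 624 and 351 in Al (log2 fold change -0.34 ± 0.29, adjusted P = 0.333). Hist2h2aa1 was at 381, 322 and 350 in control and 429, 390 and 205 in Al (log2 fold change -0.11 ± 0.27, adjusted P = 0.736). In the latter pair the 3 Al libraries lay on both sides of the control range.
Hist2h2ab was the only tested histone gene whose scaled Al libraries all lay above the control libraries, at 72.6, 67.2 and 57.3 against 44.7, 43.7 and 49.9. Its log2 fold change of 0.51 ± 0.12 (adjusted P = 0.00507) was under the fold threshold, and on FPKM as deposited it was 0.02. Hist2h3c1 was at 38.5, 45.8 and 51.9 in control and 186, 53.6 and 27.2 in Al, so that 1 library set its log2 fold change of 0.52 ± 0.57 (adjusted P = 0.442). Its twin Hist2h3c2, which has the same coding sequence, was at 25.1, 30.4 and 42.6 in control and 46.8, 42.7 and 25.2 in Al (log2 fold change 0.21, adjusted P = 0.497). The twin of Hist2h2aa1, Hist2h2aa2, showed a log2 fold change of -0.38 (adjusted P = 0.396). Reads of the twins could have been split between the copies, and none of the 4 was called.

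The exceptions with a known polyadenylated form had smaller log2 fold changes in most cases, a difference that was not tested. The list holds Hist1h1c, Hist1h2bc, Hist1h2be, Hist1h2bg, Hist2h2be, Hist3h2a, Hist3h2ba and Hist4h4. Of the 7 tested, 6 were called lower and 0 higher, with a median of -0.66, while the 56 genes outside this list and the testis list had 45 called lower and a median of -1.23. Hist1h2bg was at 268, 262 and 277 in control and 187, 150 and 94.1 in Al (log2 fold change -0.96 ± 0.23, adjusted P = 0.00585). Hist1h2be was at 78.2, 73.4 and 73.3 in control and 57.1, 51.4 and 35.4 in Al (log2 fold change -0.67 ± 0.17, adjusted P = 0.00738). Hist1h2bc was at 62.1, 68.4 and 63.5 in control and 49.1, 45.2 and 30.7 in Al (log2 fold change -0.66 ± 0.17, adjusted P = 0.00832). All 3 are H2B genes of the Hist1 cluster, and their Al values were below control in every library.
Hist4h4, the only gene of its cluster, was at 296, 320 and 344 in control and 228, 159 and 75.4 in Al, the largest fall among the exceptions (log2 fold change -1.19 ± 0.34, adjusted P = 0.0144). Hist2h2be was at 0.748, 1.26 and 1.03 in control and 0.701, 0.779 and 0.723 in Al (log2 fold change -0.39, adjusted P = 0.188), on 37 to 176 reads a library. Hist3h2ba rested on 6 to 43 reads a library, and its log2 fold change of -0.66 ± 0.27 passed the unadjusted threshold with an adjusted P of 0.0607. Without Al replicate 3, 2 of the 7 tested exceptions were called lower and their median was -0.46, where the 56 other genes had 38 called and a median of -0.98.
The length over which reads were counted bears on these genes and on others outside the list. The recovered length of Hist4h4 was 439 bases, where GENCODE annotates a transcript of 2863 bases that runs 2445 bases past the stem-loop. For Hist1h1c the recovered length was 725 bases, against a GENCODE transcript of 1560 bases. Reads from the long 3′ ends of both therefore lay outside the counted span, whereas Hist2h2be (2667 bases) and Hist1h2be (2510 bases) were counted over theirs. Genes outside the list also had uncounted 3′ ends, among them Hist1h1d (776 against 7425 bases), Hist1h2ac (487 against 2482) and Hist1h2bh (522 against 1679). The table does not separate stem-loop-ended from polyadenylated mRNA of a gene.

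Of the genes known for expression in the testis, Hist1h1t and Hist1h2aa had few reads in any library, and Hist1h2ba had more in control. Hist1h1t was counted with 14, 8 and 11 reads in control and 1, 4 and 0 in Al (log2 fold change -1.07 ± 0.53, adjusted P = 0.107). Hist1h2aa had 10, 2 and 22 reads in control and 1, 0 and 1 in Al (log2 fold change -1.57 ± 0.63, adjusted P = 0.057, called on the unadjusted P), and its groups overlapped. That call was lost with a pseudocount of 1, with no filter, with no trend, with voom on the recovered reads, and without control replicate 1, control replicate 3 or Al replicate 2. Hist1h2ba had 64, 74 and 61 reads in control and 11, 9 and 0 in Al (log2 fold change -2.53 ± 0.86, adjusted P = 0.0291), and without the Al library at 0 its log2 fold change was -1.30. The control libraries were the deeper ones, so these read numbers are not scaled to each other, and on scaled FPKM only Hist1h2ba had groups without overlap.

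Genes called lower were found along the whole Hist1 cluster. Gaps of over 100 kb divide the Hist1 cluster into 4 blocks. In the first block (chr13:21715763-21837530) all 18 genes were called lower, with a median of -1.53, and in the second (chr13:22035164-22043676) all 5, with a median of -1.27. In the third (chr13:23531050-23764406) 24 of 29 were called, with a median of -1.21. The 5 uncalled Hist1 genes, Hist1h1e, Hist1h1t, Hist1h3a, Hist1h4a and Hist1h4d, all lie in the third block, which also holds the 2 most lowered genes, Hist1h1a and Hist1h2bh. The fourth (chr13:23933773-23934851) holds the testis pair Hist1h2ba and Hist1h2aa.

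Many H2A and H2B genes sit head to head and share the DNA between their starts. There were 12 such pairs among the tested genes, with 164 to 281 bases between the RefSeq starts, and in 11 of them both genes were called lower. The exception was Hist2h2ac and Hist2h2be, with log2 fold changes of -1.23 and -0.39. The members of a pair differed in log2 fold change by a median of 0.61 and by up to 1.07, the latter for Hist1h2bf (-1.54) and Hist1h2ad (-2.61). Across the 12 pairs Pearson's r between the log2 fold changes was 0.36, a description over genes that share libraries and, in part, near-identical sequence.

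The promoters of 2 H2B genes are shown because these genes contrast: Hist1h2bh fell most of its type, and Hist2h2bb, the most abundant, was not called. The sequences are from RefSeq on GRCm38.p6 and run from 250 bases before the start to 50 after it. Capitals mark the box CCAAT, the TATA box spelled TATAAA, and the octamer of H2B promoters, ATTTGCAT, all searched on both strands. The first of them therefore also appears as its reverse complement, ATTGG, and TATAAA occurs in neither sequence.
Hist1h2bh (chr13:23543395-23543694, minus strand): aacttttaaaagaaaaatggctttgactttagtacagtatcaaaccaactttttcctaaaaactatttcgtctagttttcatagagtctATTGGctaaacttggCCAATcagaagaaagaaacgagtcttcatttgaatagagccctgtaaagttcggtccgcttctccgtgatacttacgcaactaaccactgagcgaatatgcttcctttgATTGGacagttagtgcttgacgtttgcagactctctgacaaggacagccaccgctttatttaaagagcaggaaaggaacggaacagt
Hist2h2bb (chr3:96269450-96269749, plus strand): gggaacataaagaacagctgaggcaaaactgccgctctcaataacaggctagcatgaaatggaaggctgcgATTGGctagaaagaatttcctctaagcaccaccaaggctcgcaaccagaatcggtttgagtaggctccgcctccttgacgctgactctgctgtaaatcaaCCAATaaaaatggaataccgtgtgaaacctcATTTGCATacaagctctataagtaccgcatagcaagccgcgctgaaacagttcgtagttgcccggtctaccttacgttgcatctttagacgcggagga
CCAAT was present in all 50 H1, H2A, H2B and H3 promoters searched, in 3 of the 12 H4 promoters, and in 41.1% of 27025 promoters of all genes. ATTTGCAT was present in 7 of 18 H2A and 7 of 16 H2B promoters, in none of the other types, and in 1.97% of all promoters. The H1 box AAACACA was present in 5 of the 6 H1 promoters and in 8.22% of all promoters. Of the 13 tested H2A and H2B genes with the octamer, 12 were called lower with a median of -1.27, and of the 20 without it 17 were called lower with a median of -1.51. In the 25 tested genes with the stem-loop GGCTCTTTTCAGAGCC the median was -1.03 (19 called lower), in the 7 with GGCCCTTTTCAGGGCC it was -0.98 (6 called lower), and in the 6 with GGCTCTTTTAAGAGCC it was -1.30 (5 called lower).

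Over the 66 genes, which share libraries, Pearson's r between log2 fold change and log2 control FPKM was 0.06, given as a description. The r with the GC content of the coding sequence (55.4% to 70.0% over the 67 genes) was 0.09. Over all tested genes with a value, r was 0.04 with GC content and -0.16 with log2 length. The 848 other tested genes with a recovered length of up to 1000 bases had a median log2 fold change of 0.60. Near-identical copies may limit the gene-by-gene values, since 12 of the 67 genes had all coding stretches of 100 bases in other genes and 10 had none. In the 27 tested genes with under 50% of such stretches, 19 were called lower and the median was -0.89.

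Genes that act on histone genes, their mRNA and their proteins were called in both directions, in shares at or under those of all tested genes (26.2% higher, 24.4% lower), and the higher calls depended on the scaling. Of 19 regulators and processing factors, 4 were called higher and 3 lower, with a median of 0.15. On FPKM as deposited 0 were called higher and 6 lower, on TPM 0 and 10, and after quantile normalization 3 and 2. At these scalings 42.0%, 53.1% and 24.2% of all 12889 tested genes were called lower, and 1805, 1200 and 2859 genes higher. Npat, the coactivator of histone genes in S phase, was at 7.30, 6.61 and 6.50 in control and 12.2, 12.4 and 16.3 in Al (log2 fold change 0.98 ± 0.14, adjusted P = 0.00035; 0.50 as deposited). Hinfp, which activates H4 genes, showed a log2 fold change of 1.01 (adjusted P = 0.00018; 0.53 as deposited). Slbp was at 29.9, 28.6 and 31.6 in control and 52.9, 53.0 and 50.3 in Al (log2 fold change 0.79 ± 0.09, adjusted P = 0.000115; 0.31 as deposited). Srrt, part of the link between the mRNA cap and processing, showed a log2 fold change of 1.07 (adjusted P = 4.6e-05; 0.58 as deposited).
The 3 genes called lower were Lsm10, Lsm11 and Cstf2. Lsm10, a ring protein particular to the U7 snRNP, was at 24.1, 25.1 and 23.2 in control and 12.8, 9.70 and 10.4 in Al (log2 fold change -1.14 ± 0.12, adjusted P = 8.09e-05). Its partner Lsm11 was at 4.08, 3.96 and 4.02 in control and 1.81, 1.87 and 3.02 in Al (log2 fold change -0.86 ± 0.21, adjusted P = 0.00608), and Cstf2 showed a log2 fold change of -0.82 (adjusted P = 0.000199). Lsm10 and Cstf2 were lower under every scaling, while Lsm11 had -0.52 after quantile normalization and was not called there. Of the other listed genes that act in cleavage after the stem-loop, Cpsf2 (log2 fold change -0.03), Cpsf3 (0.29), Sympk (0.51) and Zfp473 (0.60) were not called. Of the 5 histone chaperones, Asf1a was called higher (log2 fold change 0.91, adjusted P = 0.00294; 0.44 as deposited), 0 were called lower, and the median was 0.26. That median turned negative as deposited (-0.23, with 0 higher and 1 lower), on TPM (-0.53, with 0 higher and 2 lower) and after quantile normalization (-0.05, with 1 higher and 1 lower). The median of all tested genes moved too, from 0.03 to -0.43, -0.72 and -0.03. The chaperone median lay above it except after quantile normalization.

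The calls of replacement histones depended on the scaling. Of the 10 tested, 5 were called higher and 1 lower, with a median of 0.58, beside 26.2% higher and 24.4% lower among all tested genes. As deposited 1 was higher and 3 lower with a median of 0.10. After quantile normalization 1 was higher and 2 lower with a median of 0.06, and on TPM 1 was higher and 4 lower with a median of -0.20. Of all 12889 tested genes, 42.0%, 24.2% and 53.1% were called lower at these scalings, and 1805, 2859 and 1200 genes higher. The medians of all tested genes were -0.43, -0.03 and -0.72 there, and 0.03 with the median-of-ratios scaling. The list median thus turned in sign on TPM but lay above that of all genes at each scaling. The linker variant H1f0 fell from 256, 276 and 264 to 76.1, 85.9 and 75.0 (log2 fold change -1.75 ± 0.11, adjusted P = 1.11e-05), beside a median of -1.55 over the clustered H1 genes. H2afj was at 48.6, 51.4 and 55.7 in control and 172, 162 and 89.1 in Al (log2 fold change 1.38 ± 0.23, adjusted P = 0.000865; 0.89 as deposited). H2afx, whose mRNA also has a stem-loop form, was at 303, 283 and 326 in control and 699, 677 and 370 in Al (log2 fold change 0.88 ± 0.25, adjusted P = 0.0139; 0.39 as deposited). The centromeric variant Cenpa showed a log2 fold change of 0.84 (adjusted P = 0.000227; 0.35 as deposited). H1f0 had log2 fold changes from -2.54 to -1.75 over the scalings, and H2afj from 0.60 to 1.38.

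The S phase genes were called in both directions. Their median changed sign between scalings but lay at or above that of all tested genes at each. Of 16 genes, 6 were called higher and 2 lower, with a median of 0.43, beside 26.2% higher and 24.4% lower among all tested genes. As deposited 2 were higher and 5 lower with a median of -0.06. After quantile normalization 3 were higher and 4 lower with a median of -0.02, and on TPM 2 were higher and 7 lower with a median of -0.36. Of all 12889 tested genes, 42.0%, 24.2% and 53.1% were called lower at these 3 scalings, and 1805, 2859 and 1200 genes higher. The medians of all tested genes were -0.43, -0.03 and -0.72 there, and 0.03 with the median-of-ratios scaling. Cdc6, the loader of the replicative helicase, was at 12.4, 11.7 and 12.5 in control and 57.4, 51.6 and 50.5 in Al (log2 fold change 2.11 ± 0.09, adjusted P = 4.03e-06; 1.63 as deposited). Mcm3, a helicase subunit, was at 134, 131 and 143 in control and 346, 365 and 345 in Al (log2 fold change 1.37 ± 0.12, adjusted P = 3.14e-05; 0.89 as deposited). Both rose in every Al library. Mcm4 showed a log2 fold change of 0.90 (adjusted P = 9.86e-05; 0.41 as deposited). The thymidine kinase Tk1 fell from 37.7, 35.4 and 43.8 to 13.6, 15.1 and 16.7 (log2 fold change -1.36 ± 0.12, adjusted P = 3.41e-05).

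**Figure D4:**
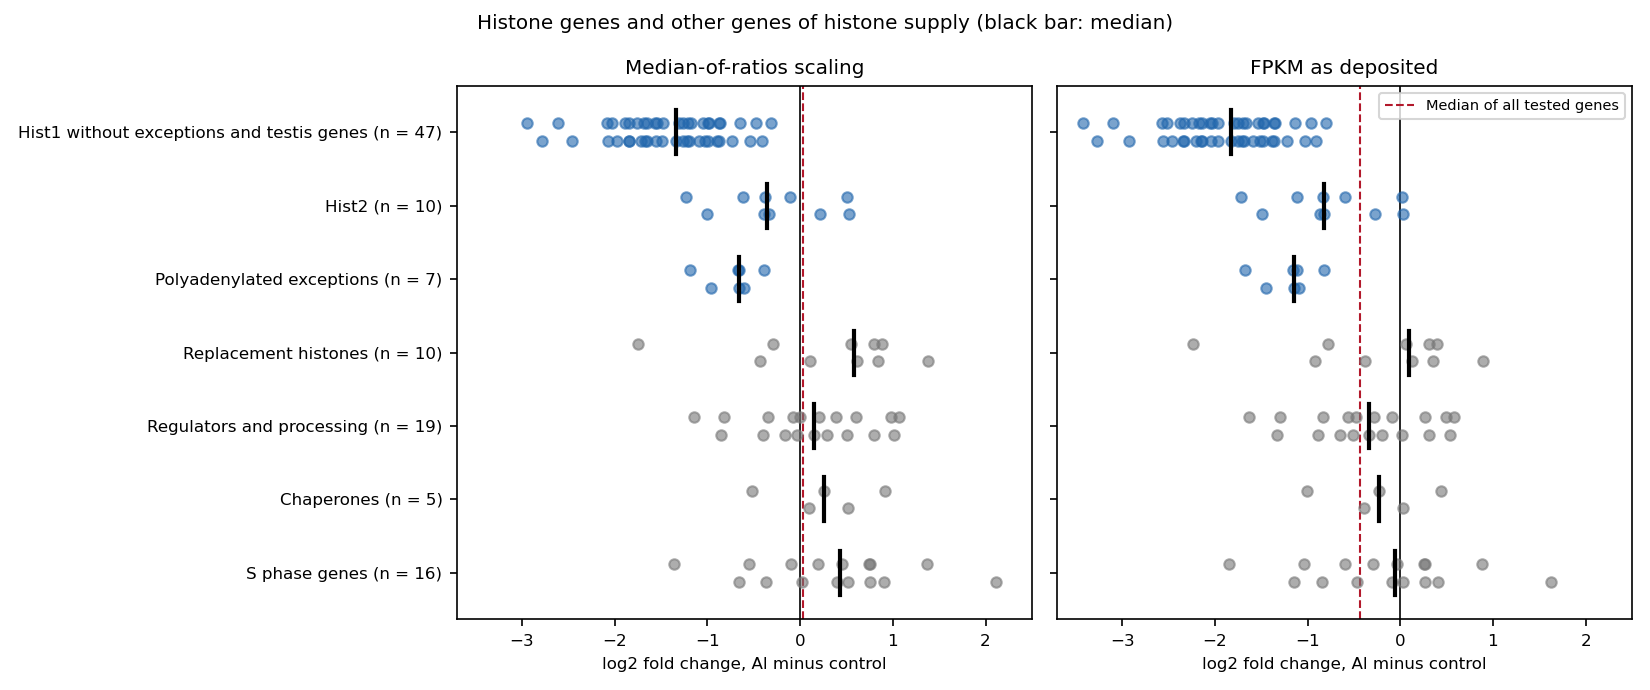
Log2 fold change (Al minus control) of single genes (points) and list medians (black bars) for Hist1 genes without the exceptions and testis genes, Hist2 genes, the polyadenylated exceptions (1 of them also a Hist2 gene) and the other lists, with the median-of-ratios scaling at left and FPKM as deposited at right; the dashed red line is the median of all tested genes. The Hist1 median lies left of that line at both scalings, at -1.34 and -1.83, whereas the replacement histones and S phase genes have medians right of it.

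Markers of brain cell types are given as sums of FPKM as deposited, with calls at the median-of-ratios scaling. Over 8 neuronal markers the summed FPKM was 5.26 to 5.63 in control and 2.51 to 4.03 in Al, with 1 marker tested (Tubb3, log2 fold change -0.19) and 0 called. As deposited and on TPM, Tubb3 was called lower (log2 fold changes of -0.66 and -0.95). The 4 astrocyte markers summed to 13.9 to 23.0 in control and 1.51 to 2.61 in Al; nearly all of it was Slc1a3, which was called lower (log2 fold change -2.96), while Aqp4 was listed at 0 throughout. The 4 microglial markers summed to at most 1.18 in any library, with Cx3cr1 called higher (log2 fold change 2.14) and P2ry12 listed at 0. The 4 oligodendrocyte markers summed to at most 0.781, and 0 of them was called. The part of these cells in the histone result was not tested, and their defining markers were at or near 0 except for Slc1a3 and Tubb3.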

How the data were processed

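RNA was measured in 6 input libraries, 3 control and 3 Al, made from fragmented RNA with the Illumina TruSeq Stranded mRNA kit. Per the study's methods, the authors used Trimmomatic for trimming, SortMeRNA against ribosomal RNA and HISAT2 for alignment, with GRCm38/mm10 as the genome. The deposited values are FPKM, 1 per gene symbol and library. The submitters' processing notes name fastp, HISAT2, HTSeq and GRCm39, and the series text names another genome, so the annotation behind the counts is uncertain. Of the recovered lengths of 66 histone genes, 48 were within 1 base of the RefSeq span on GRCm38.p6, and coordinates are given on that build.

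Whole reads were recovered from the steps of the FPKM values for 16045 of 17688 genes above 0. FPKM were divided by median-of-ratios size factors (genes above 0 in all libraries, mean FPKM of at least 1). log2 values with a pseudocount of 0.1 were fitted with limma 3.58.1 (R 4.3.3; lmFit, eBayes with trend) over the 12889 genes whose mean FPKM reached 0.1, in a procedure tested on simulated data. Fold changes on this scale understate those of low genes. Sums and shares were compared by exact permutation tests over libraries (scipy 1.17.1). P values measure the spread between these replicates only, and limits on reads cover counting error only.

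Members and lists were chosen with earlier results of these data known. The members named were those called higher, the 3 most abundant of each type, the 8 most lowered with no overlap, an adjusted P under 0.05 and 1 FPKM or more on average, all tested genes of Hist2, Hist3 and Hist4, and the polyadenylated and testis lists. Of the regulators and chaperones the called genes were named, and up to 4 replacement histones and S phase genes by the size of the change. The uncalled Hist1 genes, Hist1h4j, the uncalled cleavage factors, the head-to-head pairs and the markers with values were named after their values were seen. Sequences came from GENCODE M21 and RefSeq. The immunoprecipitated libraries were not analysed here.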

Additional observations from a re-analysis of the deposited data

How the results depend on the processing

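The median log2 fold change of the histone genes was negative under every alternative tried, from -1.98 to -0.89, and 42 to 63 genes were called lower in the alternatives that kept all of them. Over all genes, 5417 were lower and 1805 higher on FPKM as deposited, and 6843 and 1200 on TPM. The histone median was -1.68 as deposited, -1.98 on TPM and -1.71 after quantile normalization, and the log2 ratio of the summed level was -1.42 as deposited and -1.72 on TPM (P = 0.1 for each, exact permutation test). The Hist2 count of 2 became 7 as deposited and on TPM and 5 after quantile normalization. The Hist3 count of 1, which is Hist3h2ba, became 0 after quantile normalization, with a pseudocount of 1, with no filter, with the replicate block, with voom on recovered reads and at the adjusted P. The share of H2B differed by -1.23 percentage points on recovered reads in place of -1.91, and that of H2A by -0.38 in place of -0.54. These causes were not tested, apart from the scaling itself.

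Without 1 library at a time, the count of lower genes ran from 42 to 56 in the set, from 1 to 3 in Hist2, from 0 to 1 in Hist3 and from 5 to 10 among H3, and the count of higher genes from 0 to 2; the lowest counts of the set, Hist2 and H3 and the 2 higher genes came without Al replicate 3, while Hist3 had 0 without that library and also without control replicate 2, control replicate 3 or Al replicate 2. The median ran from -1.36 to -0.89 and the log2 ratio of the summed level from -1.15 to -0.66. Among members with under 50% shared coding stretches, an alternative chosen after seeing the data, 19 of 27 were called lower. Without the polyadenylated and testis lists, likewise chosen after seeing the data, 45 were. Same-numbered replicates of the groups did not deviate together (correlations of -0.03, -0.03 and -0.07), so the numbers do not pair the samples; with the replicate block 51 histone genes were called lower and 0 higher. Depth limits the values of the 13 genes with under 100 reads in some library; the other 53 had at least 100 in every library.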
